A study of Mus musculus with 8 samples.

Results

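The regions described here are 675 stretches of open chromatin in mouse CD4 T cells. Each was listed among the strongest peaks of 6 ATAC-seq libraries, and of neither library from cells that lacked Tet1 and Tet3 and received no IL-2. They were taken from 95899 regions present in at least 1 of 8 equal-number peak lists, and from 42494 that were listed in all 6 other libraries, of which they form 1.59%. That share is what the rule selected and supports nothing by itself. ATAC-seq marks open DNA by the places where a transposase inserts sequencing adapters.

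The study compared 4 groups of 2 libraries each. They were Tet1/3 conditional double knockout (cDKO) cells with TGF-β only, cDKO cells with TGF-β plus IL-2, control cells with TGF-β plus IL-2, and control cells with TGF-β only. All were naive CD4+ T cells sorted from spleen, activated for 48 h with antibodies to CD3 (0.25 µg/mL) and CD28 (1 µg/mL) and given 20 ng/mL TGF-β. IL-2 was added at 100 U, and 90000 cells entered each library. The labels also call the control cells WT. The sources used here do not give the Cre line behind the conditional deletion, the strain or age of the mice, or which animals gave which library, so replicates may share a source.

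TET1 and TET3 oxidise the methyl group of methylcytosine, which starts the removal of DNA methylation, and TET proteins are known in T cells for keeping enhancers of lineage genes demethylated. IL-2 signals through its receptor, JAK kinases and STAT5, and it supports regulatory T cells. TGF-β acts through SMAD proteins and, in activated CD4 T cells, induces Foxp3. Most cell-type-specific open regions lie away from gene starts, in enhancers.

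Few of the 675 regions lay at gene starts, so sequence could be shown for a handful. RefSeq start windows (250 bases before to 50 after a start, GRCm38.p6) held the median summit of 8 of the regions, in 9 windows. The first 5 windows below come from the regions whose weakest rank was best. That of Tnf, which encodes the inflammatory cytokine TNF, was added after its values were seen. It stands in place of the next by rank, that of 6330409D20Rik in Sh2d3c (weakest rank 60464, against 61082 for Tnf). Capitals mark matches on either strand to the letters TTCNNNGAA (STAT), TGANTCA (AP-1), CCGGAA (ETS), TGTGGT (RUNX), GGGANTTCC (NF-κB), GGGCGG (SP1) or CCAAT (NF-Y), each read from its own letters even where matches overlap.
Gm33135, beside Porcn (chrX:8206246-8206545, plus strand): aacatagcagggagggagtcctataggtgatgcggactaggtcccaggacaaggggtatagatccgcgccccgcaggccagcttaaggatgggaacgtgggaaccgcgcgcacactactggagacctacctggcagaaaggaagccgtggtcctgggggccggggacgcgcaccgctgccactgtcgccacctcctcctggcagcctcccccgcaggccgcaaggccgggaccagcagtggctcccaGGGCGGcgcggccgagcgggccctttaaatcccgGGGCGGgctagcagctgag
Gm10851, inside Pfkfb3 (chr2:11521392-11521691, plus strand): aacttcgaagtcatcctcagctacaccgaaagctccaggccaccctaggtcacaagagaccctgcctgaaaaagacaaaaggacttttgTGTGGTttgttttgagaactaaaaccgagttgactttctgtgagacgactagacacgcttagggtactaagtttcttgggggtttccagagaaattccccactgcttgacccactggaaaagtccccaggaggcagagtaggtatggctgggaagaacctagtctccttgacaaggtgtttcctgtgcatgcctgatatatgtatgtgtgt
Vrk1 (chr12:106030467-106030766, plus strand): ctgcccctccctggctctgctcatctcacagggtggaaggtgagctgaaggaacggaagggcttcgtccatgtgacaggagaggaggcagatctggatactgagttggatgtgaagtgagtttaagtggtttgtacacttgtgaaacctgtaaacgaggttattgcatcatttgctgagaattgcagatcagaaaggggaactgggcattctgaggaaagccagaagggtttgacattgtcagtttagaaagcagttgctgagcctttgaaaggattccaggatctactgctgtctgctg
Spata6 (chr4:111777347-111777646, plus strand): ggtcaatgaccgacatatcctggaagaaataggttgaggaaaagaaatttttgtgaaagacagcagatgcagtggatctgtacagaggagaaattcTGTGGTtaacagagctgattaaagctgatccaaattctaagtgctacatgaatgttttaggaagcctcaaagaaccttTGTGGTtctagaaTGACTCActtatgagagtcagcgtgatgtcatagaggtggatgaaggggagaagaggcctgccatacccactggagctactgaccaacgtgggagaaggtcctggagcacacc
Rdh1 (chr10:127759513-127759812, plus strand): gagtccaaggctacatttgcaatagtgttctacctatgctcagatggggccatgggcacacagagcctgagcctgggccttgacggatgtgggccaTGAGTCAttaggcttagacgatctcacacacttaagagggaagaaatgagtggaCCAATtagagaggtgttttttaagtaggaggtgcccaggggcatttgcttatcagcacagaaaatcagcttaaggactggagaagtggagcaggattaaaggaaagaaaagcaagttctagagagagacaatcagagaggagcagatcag
Tnf (chr17:35201958-35202257, minus strand): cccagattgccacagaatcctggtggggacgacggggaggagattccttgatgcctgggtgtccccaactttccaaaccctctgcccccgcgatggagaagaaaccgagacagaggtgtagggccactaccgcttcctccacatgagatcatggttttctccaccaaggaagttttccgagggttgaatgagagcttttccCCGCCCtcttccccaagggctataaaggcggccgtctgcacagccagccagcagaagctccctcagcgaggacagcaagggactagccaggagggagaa

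The 6 windows differ in CpG content, from 24 CpG in the Gm33135 window and 11 in that of Tnf to 5, 3, 3 and 2 in those of Gm10851, Vrk1, Spata6 and Rdh1. Across all 9 windows the median was 8 CpG, with a range of 2 to 24, against a median of 7 over the 32851 windows of the table. Start windows that held the summit of a region listed in all 8 libraries had a median of 23 CpG (8696 windows). Windows of the sets missing only in 1 other group had a median of 7 CpG for control plus IL-2 (13 windows) and 22.5 for control TGF-β only (20 windows), and the single window for cDKO plus IL-2 had 5. The AP-1 letters stood in 2 of the 9 windows, those of Spata6 and Rdh1, against 7.81% of all windows. RUNX letters stood in 3 of 9, against 16.8% of all windows, SP1 letters in 5 against 35.7%, and NF-Y letters in 4 against 37.4%. STAT, ETS and NF-κB letters stood in none of the 9, against 8.30%, 14.9% and 1.68% of all windows. The windows chr7:39449261-39449560 and chr7:39449268-39449567 are starts of Zfp939 that overlap almost fully, so 1 site counts in both. Both hold SP1 and NF-Y letters and they have 8 and 9 CpG, so those counts and the median lean on that site. These are matches of letters in windows that cover 8 of the 675 regions, and they say nothing of the factors.

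The deposited lists held 65811 to 145979 peaks per library, and read depth is not stated in them. Each list was therefore limited to its 65811 strongest peaks by −log10 p, the length of the shortest list. A rank below means the place of a region's strongest peak in the full deposited list ordered that way, with 1 the strongest. Ranks past 65811 thus lie beyond the limit. At that limit peaks stood at a −log10 p of 9.25 and 10.1 in the cDKO TGF-β only libraries, and of 3.25 to 13.5 in the others, so the limit was not the same strength everywhere. The lowest value was that of the shortest list, from control plus IL-2 (replicate 2). The 10 genes fixed for T cell identity and signalling, among them Cd3e, Cd4 and Lck, had listed regions in every library. Of 12 B cell genes 8 did as well, of 12 CD8 and NK cell genes 8, of 14 myeloid genes 9 and of 12 erythroid genes 8, so regions near such genes do not separate the cell types. Tet1 was assigned 6 and 8 regions in cDKO TGF-β only cells and 7 to 9 in the other groups, and Tet3 11 and 11 against 10 to 12. Which exons were deleted is unknown here, so this does not check the deletion.

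Missing from a list did not usually mean absent. In bulk samples a weaker peak can come from fewer cells with the site open or from less opening per cell, and these cannot be told apart. Of the 675 regions, 432 (64%) were listed at a lower rank in both deposited lists of cDKO TGF-β only cells, 156 in 1 of them, and 87 (12.9%) in neither. In replicate 1 of that group 479 of the regions were deposited, at ranks from 65820 to 96703 with a median of 78286, and in replicate 2 541 were, from 65813 to 108739 with a median of 79606. Of these, 191 and 212 lay within 10000 places of the limit. Only 5 of the 87 had another deposited cDKO TGF-β only peak within 500 bp.

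In the other 6 libraries the regions were of middling to low strength. Their median rank was 48488 and 43027 in cDKO plus IL-2, 29391 and 29656 in control plus IL-2, and 40484 and 47625 in control TGF-β only. Regions listed in all 8 libraries had median ranks of 20590 to 21086. The weakest of a region's 6 ranks ran from 24510 to 65805 with a median of 57805, and for 634 of 675 it was past 40000. The strongest of the 6 ran from 2839 to 56374 with a median of 24560. By the ranks of the 6 libraries that list them, the regions closest inside the limit lay 16.3 kb from Mmp7 and in Slc38a1, with weakest ranks of 65805 and 65787. By the cDKO TGF-β only ranks, the closest inside lay in Smurf1 and Snupn, at 65813 in replicate 2 and 65820 in replicate 1. By those same ranks, regions in Slc27a6 and Smco4 fell closest outside, since a cDKO TGF-β only library listed them at 65788 and 65761. The merged regions were 206 to 1403 bp wide, with a median of 463 bp.

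**Figure D1:**
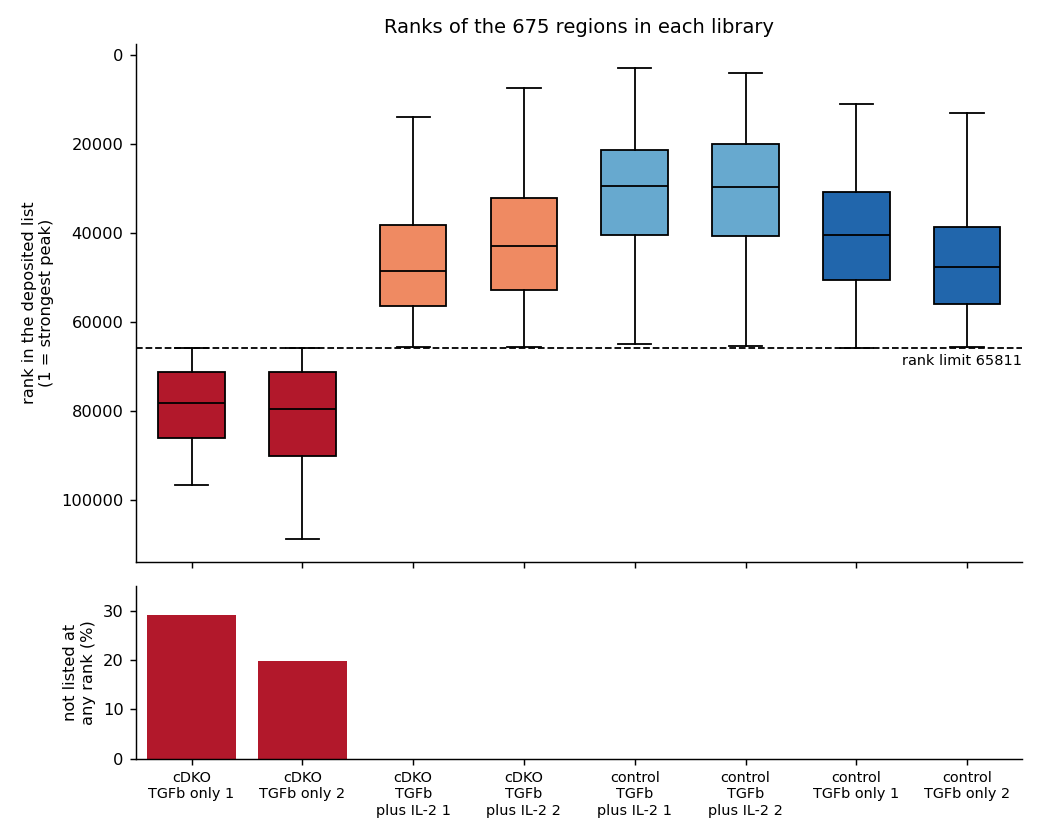
Rank of the 675 regions in each library (top; box, quartiles; line, median; whiskers, lowest and highest; regions not listed are left out) and percent not listed at any rank (bottom). The medians are 29391 and 29656 in control plus IL-2, and the boxes of cDKO TGF-β only lie past the rank limit of 65811 because the rule placed them there.

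Among the 3 groups that list the regions, control cells with IL-2 ranked them best. Both control plus IL-2 ranks were better than both control TGF-β only ranks at 413 of the 675 regions (61.2%), against 17.6% of all regions listed in the same 6 libraries. The opposite order was found at 23 (3.41%), against 19.4%. The rule asked only that these libraries list the region, not for an order among them, but it did pick the regions from the same lists, so no test was made.

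cDKO cells with IL-2 stood below control cells with IL-2. Both cDKO plus IL-2 ranks were worse than both control plus IL-2 ranks at 442 regions (65.5%), against 21.2% of all regions listed in those libraries, and better at 15 (2.22%), against 24.1%. Set beside control TGF-β only, cDKO plus IL-2 was better at 144 regions (21.3%, against 23.2%) and worse at 186 (27.6%, against 21.0%), shares near those of all regions. With IL-2, then, cDKO cells listed these regions at ranks that overlapped those of control cells without IL-2 and mostly stood behind those of control cells with it. Ranking by the authors' fold gave 49.3% for the first order and 59.7% for the second. Without replicate 2 of cDKO TGF-β only the shares were 46.9% and 55.0%. In the 87 regions with no cDKO TGF-β only peak at any rank they were 77.0% and 74.7%.

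**Figure D2:**
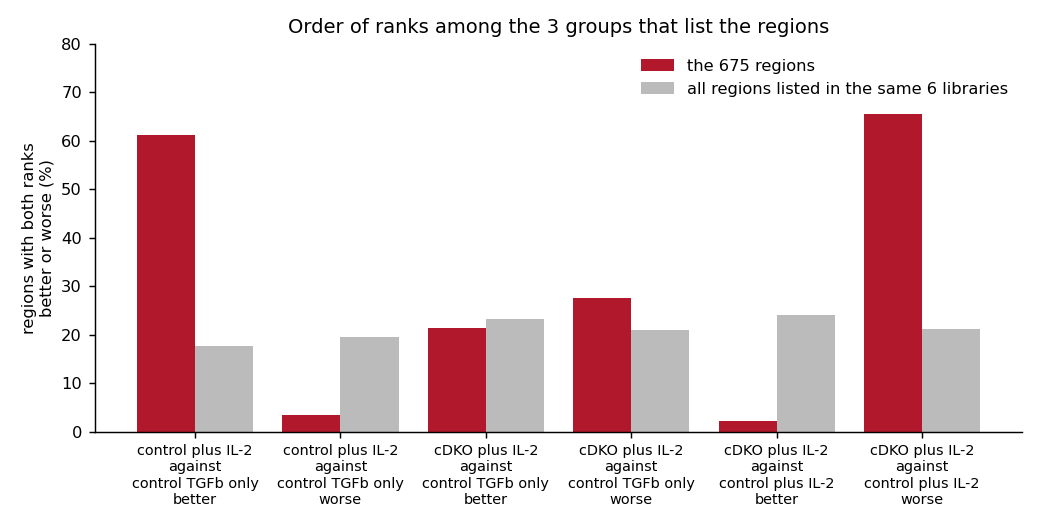
Percent of regions for which both libraries of the first group ranked better, or worse, than both libraries of the second, for the 675 regions (red) and for all 42494 regions listed in the same 6 libraries (grey). The red bars stand well above grey for control plus IL-2 against control TGF-β only, better (61.2% against 17.6%), and for cDKO plus IL-2 against control plus IL-2, worse (65.5% against 21.2%).

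The same rule applied to each other group gave 245 regions missing only in cDKO plus IL-2, 743 missing only in control plus IL-2 and 210 missing only in control TGF-β only. As shares of the regions listed in the other 6 libraries these were 0.583%, 1.66% and 0.497%. No region of the first and last of these sets was missing from both deposited lists of its group, against 87 of the 675 and 63 of the 743. The shortest list belongs to control plus IL-2, so a region missing there cannot be found further down it. Within each set the libraries that differ from the missing group in both genotype and IL-2 had the best median ranks. For the 743 these were 41133 and 39643 in cDKO TGF-β only, against 46883 to 50503 elsewhere, and for the 245 they were 43724 and 41931 in control TGF-β only, against 46616 to 52718. For the 210 they were 44246 and 46431 in cDKO plus IL-2, against 48321 to 55223. The order seen in the 675 regions is therefore shared by the sets chosen in the same way.

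**Figure D3:**
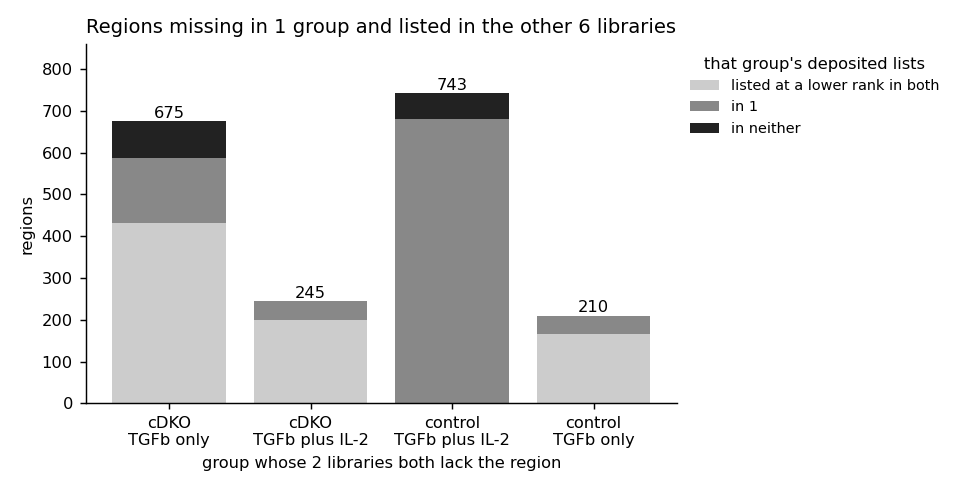
Number of regions missing in both libraries of 1 group and listed in the other 6, split by how many of that group's deposited lists hold the region at a lower rank. The sets number 675, 245, 743 and 210, and 87 of the 675 and 63 of the 743 are in neither deposited list of the missing group.

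By the same choice, all 675 regions count as lower in cDKO than in control without IL-2, a call made for 4.81% of regions there, and as higher with IL-2 in cDKO cells, a call made for 3.30%.

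The regions lay far from gene ends. Only 27 of 675 (4%, 95% Clopper-Pearson interval 2.65% to 5.77%) had a protein-coding gene's start or end within 1 kb, against 26.1% of regions listed in all 8 libraries and 8.25% of the other regions listed in exactly 6. The sets missing only in cDKO plus IL-2 and only in control plus IL-2 had 1.22% and 4.31% there, and the set missing only in control TGF-β only had 20% (14.8% to 26.1%). Protein-coding gene bodies held 360 regions (53.3%), and another 249 lay within 100 kb of such a gene. The other 66 (9.78%) had no protein-coding gene within 100 kb, against 5.23% of the regions listed in all 8. The median distance to the closest gene end was 21.5 kb, against 9.36 kb for those listed in all 8. The sets missing only in cDKO plus IL-2 and only in control plus IL-2 had 7.76% and 9.96% with no such gene, and medians of 24.7 kb and 20.6 kb. The set missing only in control TGF-β only had 6.67% and 14.5 kb, and the other regions listed in exactly 6 had 7.66% and 17.0 kb. Distance from genes was thus not particular to the 675 regions. The intervals cover counting only and take regions as independent. Whether a region is exonic or intronic was not analysed here.

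**Figure D4:**
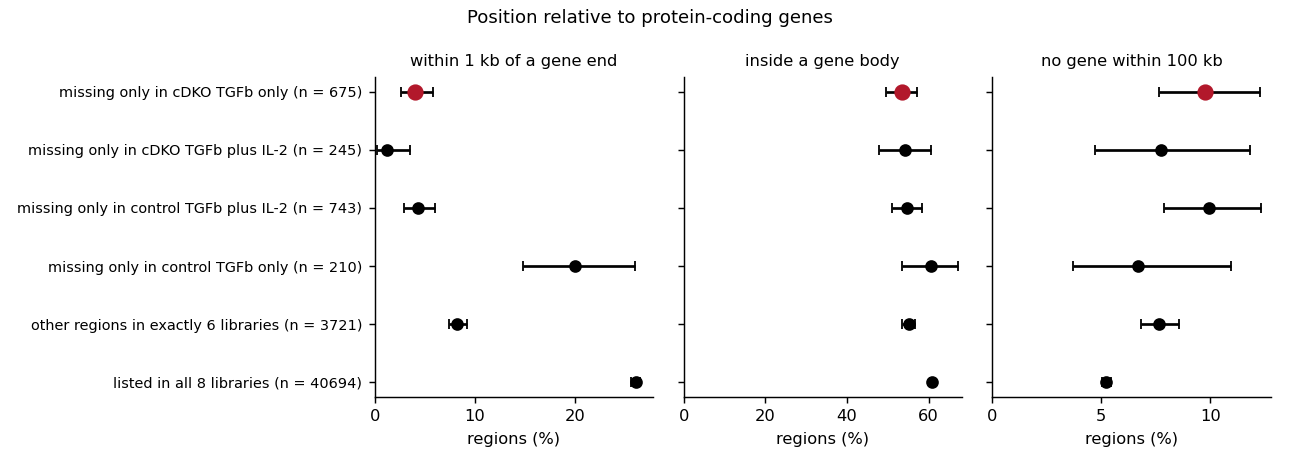
Share of each set of regions within 1 kb of a protein-coding gene end, inside a protein-coding gene body, or with no protein-coding gene within 100 kb. Bars are exact 95% binomial intervals, and the 675 regions are in red. At gene ends the 675 regions have 4%, regions listed in all 8 libraries 26.1% and the set missing only in control TGF-β only 20%.

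Every chromosome except Y contributed. Chromosome 13 gave the largest share, 49 of 1916 regions listed in the other 6 libraries (2.56%), followed by chromosome 16 with 34 of 1514 (2.25%). Chromosome 17 gave the smallest, 17 of 1961 (0.867%), and chromosome 6, where Tet3 lies, gave 26 of 2170 (1.20%). Most regions were solitary: of 572 genes with an assigned region, 538 had 1. Inpp4b, Spef2 and Fcgr3 had 3 each, of 29, 13 and 7 regions assigned to them that the other 6 libraries listed. Within 10 kb of the 675 lay 800 other regions listed in 1 to 7 libraries. The equal-number lists held 41.3% and 41.4% of them in cDKO TGF-β only, 40.1% and 42.3% in cDKO plus IL-2, 44.0% and 45.0% in control plus IL-2, and 41.0% and 43.4% in control TGF-β only. Over all 54530 such regions the shares were 42.4% and 43.9% in cDKO TGF-β only, 38.6% and 42.3% in cDKO plus IL-2, 41.6% and 41.2% in control plus IL-2, and 41.3% and 42.2% in control TGF-β only. Set against those, the neighbours' shares were lower in both cDKO TGF-β only libraries and higher in both control plus IL-2 libraries, which had the most negative and the most positive differences of the 8, the same direction as the 675 regions. The neighbours were counted in the same lists that chose the 675 regions, so this is no separate support, and it was not tested. A region listed in all 8 libraries lay within 10 kb of 381 of the 675.

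The 10 regions with the best weakest rank lay at 9 protein-coding genes and at 1 site with none within 100 kb. In Maco1 (chr4:134841966-134842324) the ranks were 91960 and 70392 in cDKO TGF-β only, 22165 and 7547 in cDKO plus IL-2, 5472 and 6149 in control plus IL-2, and 16714 and 24510 in control TGF-β only. This was the region with the widest gap between the limit and its weakest listed rank. A region in Cytip, which encodes a regulator of lymphocyte adhesion (chr2:58187429-58188153), stood at 94215 and 78839 in cDKO TGF-β only, 15621 and 11594 in cDKO plus IL-2, 12317 and 6844 in control plus IL-2, and 21129 and 27812 in control TGF-β only. Of the other 8, some lay in Plcl2, Abcb11, Osbpl9 and Pde4b, a phosphodiesterase gene, and some near Lrp12, Cables1 and the histone gene H4bc24. The last lay at chr4:98226326-98226937, with no protein-coding gene within 100 kb. Of the 10, 6 remained when peaks were ranked by fold.

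Of the 87 regions with no cDKO TGF-β only peak at any rank, the best placed lay 47.5 kb from Cables1 (chr18:11791405-11792060). Its ranks were 30744 and 11459 in cDKO plus IL-2, 9250 and 11857 in control plus IL-2, and 12459 and 27717 in control TGF-β only. Next came regions in Leprotl1, Camk2d, Vrk3, Canx and Cluap1, and a region 83.7 kb from Ccdc171. Another 2 had no protein-coding gene within 100 kb (chr10:17521948-17522366 and chr13:85502672-85503214). A region 2.92 kb from Cd2 (chr3:101272578-101273402), which encodes an adhesion receptor of T cells, was also among these 10, at 17035 and 16771 in cDKO plus IL-2, 8578 and 7221 in control plus IL-2, and 24394 and 45356 in control TGF-β only. IL-2 libraries of both genotypes stood above control without IL-2 there.

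The 18 gene lists held 301 genes, 299 of them in the gene table, and these had 37 of the 675 regions among 1698 listed in the other 6 libraries. That is 2.18%, against 1.59% over all regions. The lists are described in turn.

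**Figure D5:**
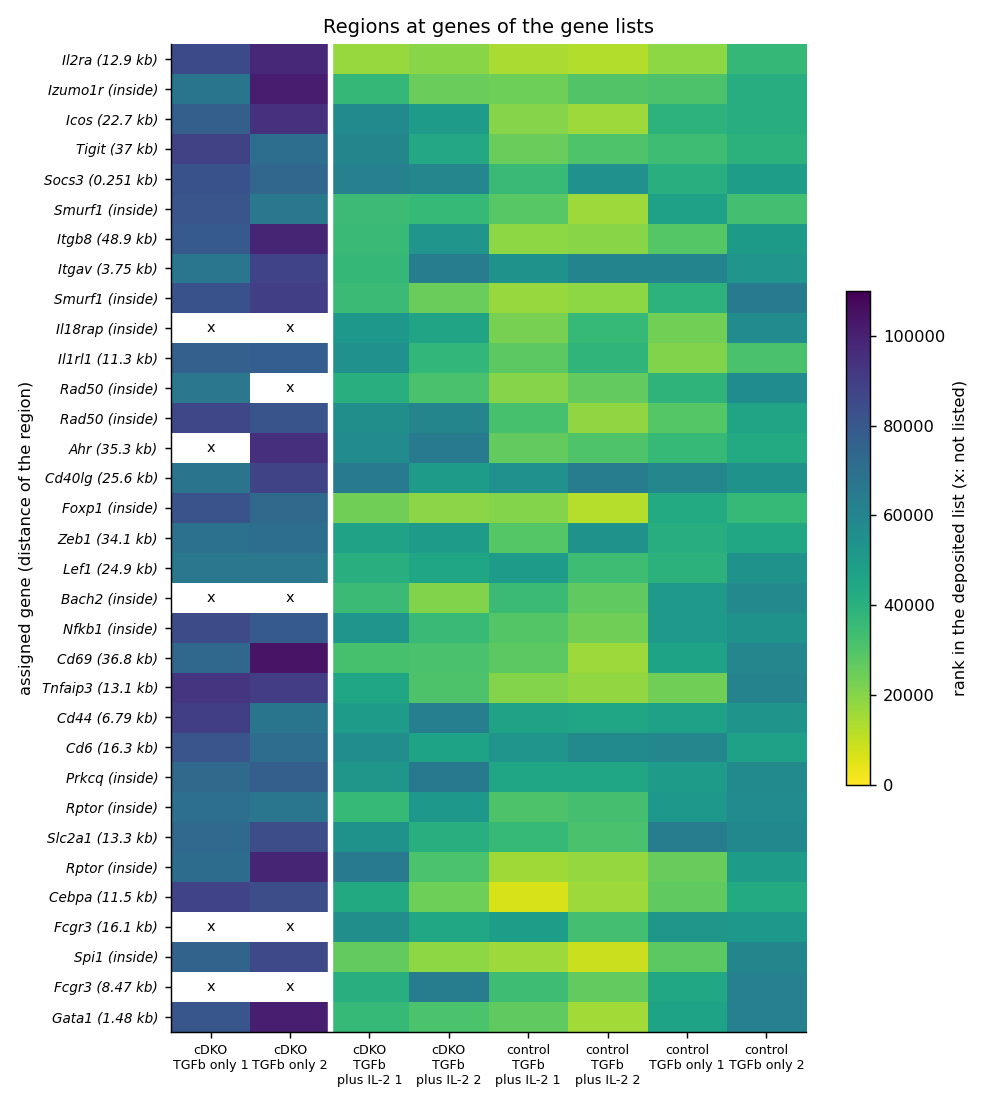
Rank of 33 of the regions, up to 4 per gene list, in each library (colour; yellow strong, violet weak; x, not listed in the deposited list). The 2 left columns are cDKO TGF-β only, where the rule put every region past rank 65811, and the lightest colours are most often in control plus IL-2.

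Genes of regulatory T cells and of IL-2 signalling had 4 of 134 regions (2.99%) and 2 of 106 (1.89%), and they share the region at Il2ra. Il2ra encodes the high-affinity chain of the IL-2 receptor. The region lay 12.9 kb upstream of the gene (chr2:11629633-11630115). It ranked 85412 and 97360 in cDKO TGF-β only, 17142 and 19350 in cDKO plus IL-2, 13903 and 12674 in control plus IL-2, and 18859 and 36800 in control TGF-β only. The authors' fold for these peaks was 3.97 and 3.63 in cDKO TGF-β only, 10.1 and 8.63 in cDKO plus IL-2, 9.76 and 8.60 in control plus IL-2, and 9.57 and 6.88 in control TGF-β only, which describes each peak within its own list. A peak was thus present at this site in all 8 deposited lists. Both cDKO TGF-β only libraries were far behind the rest, while cDKO plus IL-2 and control TGF-β only overlapped in rank.

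A neighbouring region was nearest to Rbm17, an RNA-binding protein gene (chr2:11620245-11620669), with ranks of 91481 and 94605 in cDKO TGF-β only, 21320 and 21950 in cDKO plus IL-2, 24119 and 14406 in control plus IL-2, and 54332 and 65448 in control TGF-β only. Here the IL-2 libraries of both genotypes led. Prkcq, which encodes the kinase PKC-theta, lies on the same stretch of chromosome 2. From Prkcq to the far end of Il2ra, a span of 521 kb, 4 of 44 regions (9.09%) were of the set, against 1.59% over all regions. The span was chosen after the values were seen and because regions of the set lay in it, so this share is no result. The other 2 lay in Prkcq and in Pfkfb3, a regulator of glycolysis, with weakest ranks of 65348 and 50888.

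The other regulatory T cell genes were Izumo1r, Icos and Tigit. Izumo1r encodes folate receptor 4, a surface marker of regulatory T cells, and its region inside the gene (chr9:14892215-14892637) ranked 67289 and 101367 in cDKO TGF-β only, 36766 and 25232 in cDKO plus IL-2, 24253 and 29716 in control plus IL-2, and 30662 and 41329 in control TGF-β only. Both cDKO TGF-β only libraries differed widely there, and replicate 1 was close to the limit. Icos, a costimulatory receptor gene, had a region 22.7 kb away (chr1:61022808-61023311) at 76882 and 94121 in cDKO TGF-β only, 57473 and 49183 in cDKO plus IL-2, 19967 and 16223 in control plus IL-2, and 38764 and 41601 in control TGF-β only. Tigit, an inhibitory receptor gene, had a region 37.0 kb upstream (chr16:43701796-43702471) at 88498 and 70081 in cDKO TGF-β only, 59430 and 43803 in cDKO plus IL-2, 25153 and 30405 in control plus IL-2, and 34285 and 39441 in control TGF-β only. At both, cDKO plus IL-2 stood behind all 4 control libraries. None of the 675 was assigned to Foxp3 or Ctla4. With 1.59% of all regions in the set, this does not mean that no region was open there. At Socs3, which encodes a feedback inhibitor of cytokine signalling, a region 251 bp past the gene (chr11:117965675-117965981) ranked 82468 and 73746 in cDKO TGF-β only, 62242 and 59079 in cDKO plus IL-2, 35831 and 54546 in control plus IL-2, and 40901 and 48900 in control TGF-β only. It lay close to the limit in cDKO plus IL-2.

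TGF-β genes had 4 of 145 regions (2.76%). Smurf1, a ubiquitin ligase that acts on SMADs and TGF-β receptors, held 2 inside the gene. The one with the better weakest rank (chr5:144935933-144936658) ranked 81201 and 65813 in cDKO TGF-β only, so replicate 2 there missed the limit by 2 places. It ranked 34415 and 36322 in cDKO plus IL-2, 28479 and 15958 in control plus IL-2, and 46878 and 32718 in control TGF-β only. The other Smurf1 region (chr5:144898548-144899054) ranked 82321 and 89564 in cDKO TGF-β only, 35223 and 25196 in cDKO plus IL-2, 16920 and 18726 in control plus IL-2, and 38997 and 64799 in control TGF-β only. Itgb8 and Itgav encode the subunits of an integrin that releases active TGF-β. A region 48.9 kb past Itgb8 (chr12:119113703-119114126) ranked 78796 and 98631 in cDKO TGF-β only, 35525 and 52820 in cDKO plus IL-2, 18864 and 19762 in control plus IL-2, and 29163 and 50144 in control TGF-β only. The region 3.75 kb upstream of Itgav (chr2:83718380-83718729) was weaker, at 66909 and 87685 in cDKO TGF-β only, 36708 and 63323 in cDKO plus IL-2, 53660 and 60265 in control plus IL-2, and 60271 and 52448 in control TGF-β only. Control plus IL-2 led at Itgb8, and the 3 groups overlapped at Itgav. No region was assigned to the TGF-β receptor or SMAD genes of the list.

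Naive and memory genes had 7 of 259 regions (2.70%), at 6 transcription factor or receptor genes. In Bach2, a repressor that holds back effector programmes (chr4:32319488-32320388), neither cDKO TGF-β only list held a peak. Its ranks were 35065 and 20968 in cDKO plus IL-2, 35136 and 27008 in control plus IL-2, and 50672 and 58162 in control TGF-β only. The 4 libraries with IL-2 all stood above both libraries of control without it. Foxp1, a factor of T cell quiescence, held a region (chr6:99336463-99337251) at 81647 and 71979 in cDKO TGF-β only, 24038 and 19009 in cDKO plus IL-2, 20320 and 12213 in control plus IL-2, and 42803 and 36369 in control TGF-β only, the same order. Regions near Lef1, a factor of naive T cells, and near Zeb1, a transcriptional repressor, sat close to the limit in cDKO TGF-β only, at 66006 and 66509 for Lef1 and at 69153 and 70213 for Zeb1.

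Il7r and Ets1 are named because of their values. Il7r encodes the receptor chain for IL-7, a survival cytokine of naive T cells. The region 725 bp from it (chr15:9505214-9505654) was in neither cDKO TGF-β only list, and it ranked 54002 and 51093 in cDKO plus IL-2, 17447 and 20186 in control plus IL-2, and 38430 and 59731 in control TGF-β only. Ets1, a transcription factor gene of lymphocytes, held 2 regions. The one with the better weakest rank (chr9:32738387-32738848) was in neither cDKO TGF-β only list. It ranked 31432 and 34332 in cDKO plus IL-2, 24521 and 16213 in control plus IL-2, and 59512 and 41518 in control TGF-β only.

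Genes of helper fates had between 0.813% and 5.77% of their regions in the set. Th2 genes had 3 of 52 (5.77%), 2 of them inside Rad50, whose body holds a control region for the Th2 cytokine genes, and 1 lying 11.3 kb upstream of Il1rl1, which encodes the IL-33 receptor. The Rad50 region with the better weakest rank (chr11:53650984-53651295) ranked 66312 in replicate 1 of cDKO TGF-β only and was not listed in replicate 2. It ranked 40482 and 31388 in cDKO plus IL-2, 20119 and 26325 in control plus IL-2, and 38266 and 56585 in control TGF-β only. Control plus IL-2 led there, and the control libraries without IL-2 overlapped cDKO plus IL-2. The other Rad50 region (chr11:53662906-53663713) ranked 86552 and 81630 in cDKO TGF-β only and 55850 and 59792 in cDKO plus IL-2. It ranked 31822 and 18259 in control plus IL-2, and 29149 and 45765 in control TGF-β only, so the 2 control groups overlapped. Th1 and cytotoxic genes had 1 of 94, in Il18rap, a chain of the IL-18 receptor (chr1:40516069-40516695), with no cDKO TGF-β only peak at any rank. Its ranks were 51393 and 45837 in cDKO plus IL-2, 22524 and 36295 in control plus IL-2, and 23523 and 56825 in control TGF-β only. Th17 genes had 1 of 123, 35.3 kb from Ahr, which encodes a ligand-activated transcription factor, and Tfh genes 1 of 62, 25.6 kb from Cd40lg, which encodes the ligand of CD40 that activates B cells.

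Activation genes had 4 of 157 regions (2.55%), in Nfkb1 and near Cd69, Tnfaip3 and Cd44. Nfkb1 encodes a subunit of NF-κB, and the region inside it (chr3:135676150-135676738) ranked 84646 and 78845 in cDKO TGF-β only, 52234 and 35568 in cDKO plus IL-2, 29578 and 24009 in control plus IL-2, and 50441 and 53754 in control TGF-β only. Cd69 encodes an early activation marker, and the region 36.8 kb from it (chr6:129230286-129230709) ranked 73047 and 104229 in cDKO TGF-β only, 32158 and 31470 in cDKO plus IL-2, 27791 and 16028 in control plus IL-2, and 46173 and 59165 in control TGF-β only. At both, control plus IL-2 was ahead of the other groups. Tnfaip3 encodes an inhibitor of NF-κB signalling. The region 13.1 kb upstream of Tnfaip3 (chr10:19028256-19028704) ranked 92866 and 89871 in cDKO TGF-β only, 45469 and 30537 in cDKO plus IL-2, 20456 and 17827 in control plus IL-2, and 23888 and 60627 in control TGF-β only. The 2 control libraries without IL-2 were far apart there. At Tnf, a target of NF-κB in T cells, the region at the gene start (chr17:35201975-35202367, its sequence shown above) ranked 84788 and 84353 in cDKO TGF-β only, 44963 and 61082 in cDKO plus IL-2, 46694 and 58161 in control plus IL-2, and 59126 and 48345 in control TGF-β only. The 3 groups that list it overlapped.

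Genes of the T cell receptor complex had 2 of 182 regions (1.10%), near Cd6 and in Prkcq. Metabolic genes had 3 of 94 (3.19%), 2 in Rptor, a component of the growth kinase complex mTORC1, and 1 lying 13.3 kb past Slc2a1, a glucose transporter gene. Of those in Rptor, the region with the better control plus IL-2 ranks (chr11:119724576-119725017) ranked 71115 and 98470 in cDKO TGF-β only, 64558 and 31276 in cDKO plus IL-2, 15873 and 17569 in control plus IL-2, and 25714 and 49682 in control TGF-β only, with a wide gap between replicates in cDKO cells. The Slc2a1 region (chr4:119150517-119150839) ranked 72219 and 84151 in cDKO TGF-β only, 53332 and 40497 in cDKO plus IL-2, 36310 and 31490 in control plus IL-2, and 63316 and 58585 in control TGF-β only. DNA methylation genes had 0 of 81, cell cycle and survival genes 0 of 118, and interferon response genes 0 of 57. B cell genes and CD8 and NK cell genes had 0 of 19 each.

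Myeloid genes had 5 of 37 regions (13.5%) and erythroid genes 1 of 10, 1.48 kb upstream of Gata1. The summed myeloid regions per library did not set cDKO TGF-β only apart, at 51 and 55 there and 50 to 59 elsewhere, and Mpo had none in any library. The myeloid regions were 3 upstream of Fcgr3, 1 inside Spi1 and 1 lying 11.5 kb upstream of Cebpa. Those given to Fcgr3, the nearest protein-coding gene, lay beside tRNA genes (described below), so the myeloid share rests mostly on them. The Spi1 region (chr2:91112118-91113115), in the gene of the factor PU.1, ranked 74795 and 85848 in cDKO TGF-β only, 26454 and 18564 in cDKO plus IL-2, 16300 and 8810 in control plus IL-2, and 27627 and 59347 in control TGF-β only. The Cebpa region (chr7:35107527-35107989), near the gene of another myeloid factor, ranked 88026 and 83563 in cDKO TGF-β only, 43131 and 24418 in cDKO plus IL-2, 6689 and 16325 in control plus IL-2, and 27013 and 42806 in control TGF-β only. The Gata1 region (chrX:7977870-7978407) ranked 80672 and 100915 in cDKO TGF-β only, 36361 and 31312 in cDKO plus IL-2, 26954 and 15418 in control plus IL-2, and 46050 and 61922 in control TGF-β only. Control plus IL-2 led at all 3, with cDKO plus IL-2 and control TGF-β only overlapping at Cebpa and cDKO plus IL-2 ahead of control TGF-β only at Spi1 and Gata1. Whether cells of these types contributed was not tested. Of the 33 regions named from the lists, 12 were of the set also when peaks were ranked by fold. Among them were the regions at Il2ra, Itgb8, Il18rap, Ahr, Bach2, Tnfaip3, Cebpa, Spi1 and Gata1. When a peak had to cover 50% of its region, 17 of 33 were kept. Those at Il2ra, Itgb8, Il18rap, Ahr, Bach2 and Spi1 were then lost. With full deposited lists 4 of 33 were kept, and with lists of 32905 peaks 0 of 33.

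The 3 regions named for Fcgr3 lay beside tRNA genes, which are transcribed by RNA polymerase III. This was looked at after their values were seen. They stood within 15.6 kb on chromosome 1, at chr1:171066538-171066889, chr1:171074230-171074551 and chr1:171081780-171082152, next to tRNA genes that the table names n-TGgcc12, n-TGgcc13 and n-TGgcc14. The last (at n-TGgcc14) was in neither cDKO TGF-β only list, and ranked 55801 and 44286 in cDKO plus IL-2, 48402 and 32962 in control plus IL-2, and 51811 and 51232 in control TGF-β only. On chromosome 13 another 3 lay at tRNA genes near H4bc24 and Abt1, the strongest, also among the 10 above (chr13:21855155-21855539), at 81132 and 76528 in cDKO TGF-β only, 27183 and 22668 in cDKO plus IL-2, 23447 and 22810 in control plus IL-2, and 25729 and 31856 in control TGF-β only. In all, 6 of the 675 regions (0.889%) lay within 500 bp of a tRNA gene, against 152 of 42494 (0.358%) listed in the other 6 libraries, 0 of 245 and 0 of 210 missing only in cDKO plus IL-2 or in control TGF-β only, and 1 of 743 missing only in control plus IL-2. Near-identical copies of tRNA genes can share reads, and the sources used here do not say how such reads were placed.

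Of the 27 regions at gene ends, the best placed lay at Porcn, which encodes an acyltransferase for Wnt proteins (chrX:8206106-8206658), with ranks of 65884 and 72178 in cDKO TGF-β only, 44960 and 44407 in cDKO plus IL-2, 39562 and 47426 in control plus IL-2, and 47708 and 48510 in control TGF-β only. Its values in the 6 libraries that list it lay close together, and replicate 1 of cDKO TGF-β only was near the limit. The next 7 lay at Oxnad1, Dhrs7b, Treml2, Rfc4, Polr3b, Safb2 and Ints10. Rfc4 encodes a subunit of the clamp loader of DNA replication and Polr3b one of RNA polymerase III. The regions at Oxnad1 and Ints10 were in neither cDKO TGF-β only list.

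Of the genes with most regions, Inpp4b, a phosphoinositide phosphatase gene, had 3 of its 29 regions listed in the other 6 libraries, against 1.59% over all regions. The 3 lay within 17.6 kb. That stretch runs from the first to the last of them, so its count of 4 regions listed in the other 6 libraries gives no share. The middle one (chr8:81803428-81803958) was not listed in replicate 1 of cDKO TGF-β only and ranked 71787 in replicate 2, against 64745 and 56176 in cDKO plus IL-2, 22137 and 21121 in control plus IL-2, and 47894 and 33323 in control TGF-β only. The region at chr8:81790208-81790621 was in neither list, with ranks of 48282 and 47047 in cDKO plus IL-2, 19966 and 23994 in control plus IL-2, and 49586 and 64228 in control TGF-β only. Control plus IL-2 led at both. Spef2 had 1 region inside the gene and 2 past its end, and Abcb1b and Akap13 had 2 each, of 6 and 36 listed in the other 6 libraries.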

How the data were processed

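ATAC-seq was measured in 8 libraries, 2 per group, with groups taken from the sample titles. Per the submitters' processing notes, which state neither roles nor sequence, the tools included HOMER 4.11.1, MACS2 2.2.7.1, Trimmomatic 0.39, ChIPseeker 1.18.0, SAMtools 1.3.1, DiffBind 2.10.0, Picard and Bowtie2 2.4.1, with GRCm38 (mm10) as the build. The sources used here do not give read shifting, duplicate handling or calling settings. The deposited file of each library gives the authors' fold enrichment (a ratio) for every peak. It also gives the authors' −log10 p-value (and −log10 q-value, not used). Read depth is unknown, so no interval for a peak could be given.

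All 835203 peaks were merged where they shared at least 1 bp, into 175276 regions. Each library kept its 65811 peaks of highest −log10 p (ties by fold), and the regions are those listed in all 6 libraries of the other 3 groups and in neither cDKO TGF-β only library. The members and gene lists were chosen with earlier results of these data known. Membership uses all 8 libraries, so no test was run and all values are descriptions. Midpoints were assigned to the smallest protein-coding gene body of the RefSeq table of GRCm38.p6 that held them, or else to the nearest within 100 kb. Coordinates count from 1. Starts and sequences came from RefSeq start windows of the same build, which cover part of the genes.

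Regions were named by rule: the 10 of best weakest rank, the 10 best among those at no rank in cDKO TGF-β only, up to 4 per gene list, 8 at gene ends, the 5 genes with most regions, and up to 6 start windows. Alternatives were full lists, lists of 32905 peaks, ranking by fold, a peak covering 50% of its region, absence at any rank, other gene limits, and leaving out each library. Lists of 82263 peaks for the missing group, 200 bp summit windows and leaving out chromosome 6 were added after the data were seen. The merging, ranking and selection were checked on simulated lists. Python 3.11.15, numpy 2.4.6, pandas 2.3.3, scipy 1.17.1 and matplotlib 3.10.9 were used.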

Additional observations from a re-analysis of the deposited data

Results flagged for a closer look

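At 15 of the 675 regions (2.22%) both cDKO plus IL-2 ranks were better than both control plus IL-2 ranks. Over all regions listed in the same 6 libraries this order was found at 24.1%, so it was rarer in the set. Without IL-2 these regions were listed in control and not in cDKO cells. The order of the genotypes thus differed between the 2 arms at these 15, and the difference was not tested. The rule fixed the direction without IL-2. The best placed lay 1.84 kb from Cetn2, with ranks of 31053 and 29409 in cDKO plus IL-2 and 36449 and 32088 in control plus IL-2, and in Jazf1, with 19560 and 13774 in cDKO plus IL-2 and 20601 and 25562 in control plus IL-2.

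At 23 regions (3.41%) both control plus IL-2 ranks were worse than both control TGF-β only ranks, against 19.4% of all regions listed in the same 6 libraries. In cDKO cells these regions were listed with IL-2 and not without it. This difference was not tested either, and the rule fixed the direction in cDKO cells. Examples were the Cetn2 region, at 36449 and 32088 in control plus IL-2 and 24684 and 31817 in control TGF-β only, and a region in Capza2, at 22201 and 24257 in control plus IL-2 and 20447 and 20027 in control TGF-β only.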

How the results depend on the processing

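No paired analysis was possible because the sources used here do not say which animals gave which library. The set also comes from a selection and not from a test. The number of 675 regions stayed within 1.5 times with full lists (659), ranking by fold (608), 50% coverage (592), 200 bp summit windows (724) and without chromosome 6 (649), but the regions themselves changed: 87, 338 and 307 of the 675 were kept under the first 3. Halved lists gave 362, of which 10 were among the 675. Lists of 82263 peaks left 255, and absence at any rank left 87. Leaving out 1 library gave 702 to 1291. These sets hold the 675 by construction, since fewer libraries only loosen the rule, so this does not show stability. The number moved by over 1.5 times without replicate 1 or 2 of cDKO TGF-β only (1184 and 1291). It did so too without cDKO plus IL-2 replicate 1 (1136) or control TGF-β only replicate 2 (1073).

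The share at gene ends was 5.80% with halved lists and 9.19% with ends taken as 2.5 kb, and 3.73% to 5.24% without a library. The share in gene bodies was 49.2% with halved lists, 63.0% with all genes of the table and 52.7% to 54.9% without a library.

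Better ranks in control plus IL-2 than in control TGF-β only (61.2%) were found at 49.3% by fold, 77.0% with absence at any rank, 67.8% with lists of 82263 peaks and 46.9% to 73.4% without a library. Worse ranks in cDKO plus IL-2 than in control plus IL-2 (65.5%) were found at 59.7% by fold, 59.9% with halved lists, 74.7% with absence at any rank, 74.9% with lists of 82263 peaks and 55.0% to 81.3% without a library. These were 1.91 to 4.37 and 1.95 to 3.53 times the share of all regions listed in the same libraries.

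The sets missing only in cDKO plus IL-2, control plus IL-2 and control TGF-β only numbered 117, 1394 and 22 with full lists, 129, 400 and 100 with halved lists, 0, 63 and 0 with absence at any rank, and 40, 264 and 40 with lists of 82263 peaks. Without a library, where the sets could only grow, they ranged from 278 to 958, 793 to 3086 and 239 to 946. Changes over 1.5 times came, for the first set, without cDKO TGF-β only replicates 1 and 2 (432 and 427), cDKO plus IL-2 replicates 1 and 2 (630 and 958) and control plus IL-2 replicate 2 (422). They came for the second set without control plus IL-2 replicates 1 and 2 (3086 and 1611) and control TGF-β only replicate 1 (1141), and for the last without control plus IL-2 replicates 1 and 2 (476 and 391) and control TGF-β only replicates 1 and 2 (855 and 946). The cause of these changes was not tested. Depth is not stated in the lists and limits how low a peak could be found.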

Other observations

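Over all regions within 500 bp of a tRNA gene, and not only those of the set, the equal-number lists held 158 and 155 in cDKO TGF-β only, 187 and 187 in cDKO plus IL-2, 187 and 189 in control plus IL-2, and 174 and 170 in control TGF-β only. Without the 6 regions of the set the numbers were 158 and 155, 181 and 181, 181 and 183, and 168 and 164 in the same groups, so the groups with IL-2 and those without it did not overlap. The full deposited lists, which differ in length, held 182 and 188 in cDKO TGF-β only, 206 and 225 in cDKO plus IL-2, 216 and 189 in control plus IL-2, and 233 and 190 in control TGF-β only, where the groups overlapped. The pattern was noticed in these data and no test was made.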
